A study of Mus musculus with 6 samples.

Results

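The collagen genes of mouse embryonic fibroblasts (MEFs) were examined by RNA sequencing of 6 libraries, 3 of WT cells (WT1 to WT3) and 3 of KO cells (KO1 to KO3). The members were all protein-coding rows of the deposited count table whose gene symbol had the form of a collagen chain, Col followed by a number, the letter a and a number. This rule found 44 genes among the 55565 listed, and it used no measured value. The KO MEFs were Mcm8-/- cells in which CRISPR-Cas9 had removed exon 7 of Mcm8, a helicase gene, which shifts the reading frame, and the WT MEFs were Mcm8+/+ cells. Both came from E13.5 embryos of crosses between Mcm8+/- mice of mixed C57BL/6J and ICR stock. They were grown from the trunk after head, tail, limbs, heart and liver had been removed, immortalized with the lentivirus SV40gp6 and selected with puromycin. The study's methods call the libraries of a genotype biological repeats without saying whether embryos, cultures or dishes were repeated, so p-values measure the spread between these libraries at a level that is not given.

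Collagens are proteins of the extracellular matrix built from 3 chains wound around each other in a triple helix. Fibrillar collagens form the banded fibrils that give skin, bone and tendon their strength, and fibroblasts are their main source. Basement membrane collagens (type IV) form sheets under epithelia and around vessels, beaded filament collagens (type VI and its relatives) form thin filaments around cells, and FACIT collagens sit on the surface of fibrils and link them to other matrix. Short chain collagens form hexagonal nets, multiplexins carry interrupted helices in basement membrane zones, and transmembrane collagens are anchored in the cell surface. By these classes the 44 genes held 11 fibrillar, 6 basement membrane, 7 beaded filament, 9 FACIT, 3 short chain, 2 multiplexin and 4 transmembrane members, and 2 others (Col7a1 and Col26a1).

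The libraries held 12722979 to 19019695 counts in WT and 15954793 to 21022755 in KO. Levels are given as CPM (counts scaled to a common library size, with TMM factors) for comparisons between libraries, and as FPKM (the authors' counts scaled to gene length and library size) for comparisons between genes. Neither measures RNA per cell. Ranks, ratios and shares in FPKM depend on the exonic length given for each gene, 6563 bases for Col1a1 and 12426 bases for Col1a2. Whether these lengths match the transcripts present was not examined. Mcm8 was at 13.8, 16.6 and 12.8 CPM in the WT libraries and at 4.20, 4.45 and 4.12 CPM in the KO libraries, with all KO values below all WT values (log2 fold change -1.75, edgeR adjusted p = 4.28e-12). All 12 fibroblast markers examined were above a mean of 1 CPM, with a summed level of 13030 to 15570 CPM in WT and 14880 to 15260 CPM in KO libraries, and at an adjusted p below 0.05 1 of them was higher and 5 were lower in KO, against 8.38% and 6.98% of all genes at 1 CPM or more. The markers were thus present in both genotypes but not equal in level: Thy1, a surface marker of many fibroblasts, was at 402, 384 and 397 CPM in WT and at 189, 191 and 200.5 CPM in KO libraries (log2 fold change -1.03, adjusted p = 1.06e-16). WT1 stood below the other libraries for several matrix genes, of which Fn1 (fibronectin) was at 4958 CPM in WT1 against 7393 and 7483 CPM in WT2 and WT3.

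Of the 44 collagen genes, 42 had counts in at least 1 library and were tested, and Col9a1 and Col13a1 had 0 counts in all 6 libraries, where 3 counts correspond to 0.143 to 0.236 CPM. A mean of at least 1 CPM was reached by 26 members. By length-scaled level, 7 members had a mean above 100 FPKM, 15 above 10 FPKM and 21 above 1 FPKM. Col1a1, the α1 chain of type I collagen, had a mean of 1409 FPKM and ranked 8th among all genes, and Col1a2, the α2 chain of the same fibril, had a mean of 426.8 FPKM and ranked 47th. Below them came Col6a1 at 183 FPKM, Col5a2 at 182 FPKM, Col5a1 at 136.5 FPKM, Col3a1 at 128 FPKM and Col12a1 at 124 FPKM, levels whose library values overlapped from 1 neighbour to the next in this order except between Col5a2 and Col5a1. The MEFs thus carried chains of types I, III, V, VI and XII at high levels, while the cartilage chain Col2a1 had 12 to 21 counts per library.

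The share of all counts that fell in collagen genes was 2.20%, 2.37% and 2.52% in the WT libraries and 2.465%, 2.46% and 2.51% in the KO libraries, so the genotypes overlapped. Col1a1 alone took 0.793%, 0.855% and 0.921% of the counts in the WT libraries and 0.987%, 0.994% and 1.025% in the KO libraries. Within the collagen FPKM summed over the members, the fibrillar chains held 78.3% to 79.3% in WT and 79.8% to 80.1% in KO, and the beaded filament chains 11.2% to 11.4% in WT and 10.0% to 10.2% in KO. The basement membrane chains held 2.62% to 2.78% of this sum in WT and 3.16% to 3.24% in KO. As shares of all counts, however, the fibrillar genes (1.74% to 1.96% in WT and 1.94% to 1.99% in KO), the beaded filament genes (0.196% to 0.231% in WT and 0.201% to 0.207% in KO) and the FACIT genes (0.174% to 0.236% in WT and 0.205% to 0.2101% in KO) overlapped between genotypes, while the basement membrane genes did not (0.0506% to 0.0588% in WT and 0.0668% to 0.0701% in KO). These shares were not tested, and those of the collagen FPKM depend on each other because they add up to the whole.

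**Figure D1:**
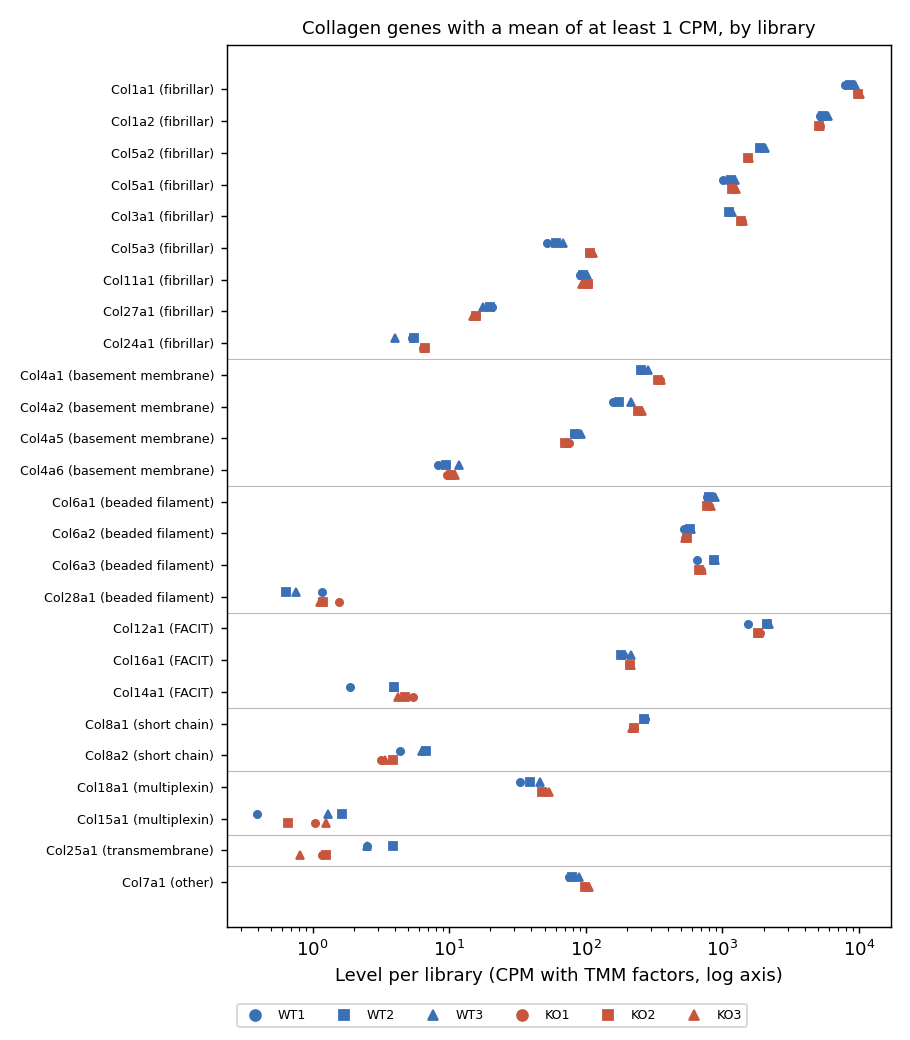
Level of each of the 26 collagen genes with a mean of at least 1 CPM in every library (x axis: CPM with TMM factors, log axis), grouped by collagen type. WT libraries are blue, KO libraries red, and the marker shape gives the replicate number, which is not known to pair the libraries. The levels span from under 1 CPM (Col15a1, Col28a1 and Col25a1 in some libraries) to 10210 CPM (Col1a1 in KO3), and the genotypes part clearly for Col5a3, Col5a2, Col3a1 and Col25a1.

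A gene was called differentially expressed (a DEG) when its absolute log2 fold change (KO against WT) was above 1 and its adjusted p below 0.05. By this rule 0 of the 42 collagen genes tested were higher in KO, where 1.73% of all genes tested were, and 1 was lower (Col25a1), where 0.662% of all genes were. At an unadjusted p below 0.05, 2 members were higher by more than 2-fold in edgeR, DESeq2 called 0, and limma voom called 1, Col6a4, with 0 to 3 counts in WT and 5 to 7 in KO libraries. Changes of less than 2-fold were more common. At an adjusted p below 0.05 whatever the fold, 7 members were higher (Col5a3, Col3a1, Col1a1, Col4a1, Col4a2, Col18a1 and Col7a1) against 4.60% of all genes tested, and 5 were lower (Col5a2, Col4a5, Col8a1, Col8a2 and Col25a1) against 3.58%. The other 30 members tested did not pass.

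All 12 members that passed were among the 26 with a mean of at least 1 CPM, where 8.38% of all genes at this level were higher and 6.98% lower. Among the 17 members at 50 CPM or more, 6 were higher and 3 lower, against 6.32% and 8.72% of all genes at this level. In 9 of the 26 members the 3 KO libraries lay above the 3 WT libraries without overlap, and in 7 they lay below. This separation was found in 16.9% (above) and 17.2% (below) of all genes with at least 1 CPM. For a single gene, the smallest two-sided p of an exact permutation test with 3 libraries a group is 0.1. The median log2 fold change of the 26 members was 0.05, and that of all genes at this level was -0.0074. By type, 3 fibrillar members were higher and 1 lower, 2 basement membrane members were higher and 1 lower, 2 short chain members were lower, and 1 multiplexin, 1 transmembrane and 1 other member passed. None of the 7 beaded filament and 8 tested FACIT members passed in the edgeR test on all libraries. At an unadjusted p below 0.05 these were 2 beaded filament members and 1 FACIT member, DESeq2 called 0 of either type, and limma voom called Col6a4.

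**Figure D2:**
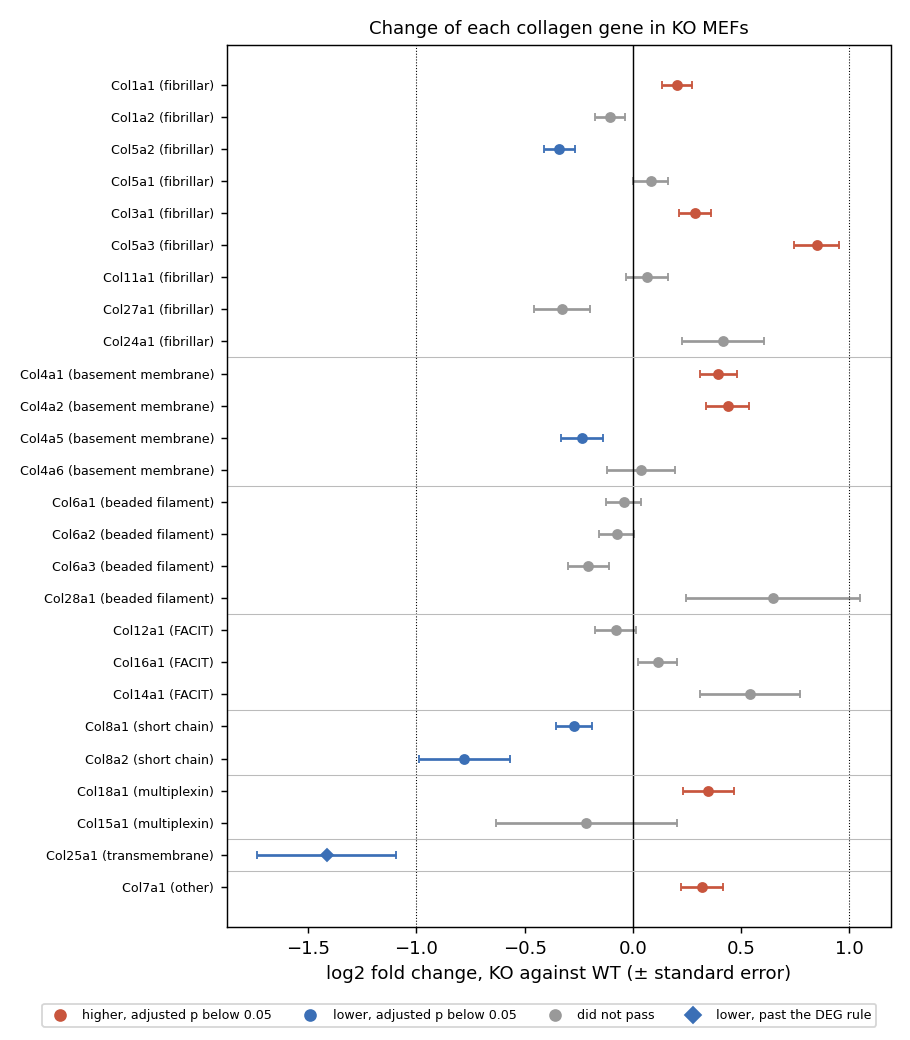
log2 fold change, KO against WT, of the 26 collagen genes with a mean of at least 1 CPM (x axis), grouped by type. Bars are approximate standard errors, which the edgeR test does not use. Red marks genes with a higher level and blue genes with a lower level in KO at an adjusted p below 0.05, grey marks genes that did not pass, the diamond marks the DEG Col25a1, and dotted lines mark a log2 fold change of 1 in each direction. Most points lie within 0.5 of 0, apart from Col5a3 at 0.85, Col8a2 at -0.78 and Col25a1 at -1.41 among those that passed.

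Among the fibrillar genes, Col5a3 showed the largest rise. It encodes the α3 chain of type V collagen, a chain that joins α1 and α2 chains in some tissues. Col5a3 was at 51.65, 60.6 and 67.95 CPM in WT1, WT2 and WT3 and at 106.3, 108 and 113 CPM in KO1, KO2 and KO3. All KO values lay above all WT values, and the rise was 1.80-fold (log2 fold change 0.85 ± 0.10 approximate standard error, adjusted p = 8.25e-11). Col5a2, the α2 chain of type V, moved the other way, from 1938, 1894 and 2047 CPM in the WT libraries to 1544, 1545 and 1559 CPM in the KO libraries. The KO libraries lay below the WT libraries without overlap (log2 fold change -0.34 ± 0.07, adjusted p = 9.26e-06). Col5a1, the chain found in nearly all type V molecules, was at 1016 to 1240 CPM in WT and 1181 to 1251 CPM in KO libraries (log2 fold change 0.08, adjusted p = 0.537), and the genotypes overlapped.

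Col3a1, which encodes the single chain of type III collagen and is abundant in skin and vessel walls, was at 1115, 1110 and 1183 CPM in the WT libraries and at 1385, 1363 and 1408 CPM in the KO libraries. It was 1.22-fold higher in KO, with no overlap (log2 fold change 0.29 ± 0.07, adjusted p = 0.000239). Col1a1 was at 7906, 8594 and 9403 CPM in the WT libraries and at 9792, 9818 and 10210 CPM in the KO libraries. The KO values lay above the WT values, by 1.151-fold (log2 fold change 0.20 ± 0.07, adjusted p = 0.00676), but the gap between WT3 and KO1 was smaller than the spread among the WT libraries. Col1a1 did not pass without KO1, KO2 or KO3 (adjusted p = 0.194, 0.0824 and 0.112), with filterByExpr (0.0945) or with genes above 0 FPKM in every library alone (0.131). Col1a2 was at 5212, 5434 and 5916 CPM in WT and at 5150, 5110 and 5140 CPM in KO libraries, and did not pass (log2 fold change -0.11, adjusted p = 0.268), although it did without WT1 (log2 fold change -0.15, adjusted p = 1.29e-05) and with limma voom on all libraries (adjusted p = 0.0234).

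Of the other fibrillar members, Col11a1 (93.9 to 104 CPM in KO libraries), Col24a1 and Col27a1 had at least 1 CPM and did not pass, with log2 fold changes of 0.07, 0.42 and -0.33. Col27a1 came nearest (adjusted p = 0.0598), and it passed with filterByExpr (0.0488), with all protein-coding genes that had a count (0.0417) and in the older edgeR fit (0.0493). Its KO libraries, at 14.9 to 15.7 CPM, lay below its WT libraries, at 17.8 to 20.6 CPM. Col2a1 and Col11a2, chains typical of cartilage, had at most 26 counts in any library and adjusted p-values of 0.856 and 0.803.

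Col3a1, which was higher, and Col5a2, which was lower, are neighbours on chromosome 1 (GRCm39: Col3a1 from 45350698 to 45388866, plus strand, and Col5a2 from 45413481 to 45542442, minus strand), with their 3′ ends 24.6 kb apart and their starts at the far ends. The sequences just upstream of fibrillar genes that rose are shown for Col3a1 (chr1:45311288-45311537, plus strand) and for Col5a3 (chr9:20815068-20815317, minus strand), 250 bases each, 5′ to 3′, from RefSeq promoter windows of build GRCm38.p6, which matched 35 of the 44 members, Col5a2 and Col1a1 not among them. Capitals mark the letters of 3 promoter motifs searched on both strands, the TATA box (TATAAA or TTTATA), the CCAAT box (CCAAT or ATTGG) and the GC box (GGGCGG or CCGCCC), and no match of 1 motif overlapped a match of another in the windows printed here.
Col3a1: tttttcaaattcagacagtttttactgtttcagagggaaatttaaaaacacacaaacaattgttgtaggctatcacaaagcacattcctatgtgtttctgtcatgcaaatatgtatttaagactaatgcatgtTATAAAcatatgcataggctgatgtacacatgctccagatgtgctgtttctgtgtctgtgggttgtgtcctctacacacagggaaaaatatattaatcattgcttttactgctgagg
Col5a3: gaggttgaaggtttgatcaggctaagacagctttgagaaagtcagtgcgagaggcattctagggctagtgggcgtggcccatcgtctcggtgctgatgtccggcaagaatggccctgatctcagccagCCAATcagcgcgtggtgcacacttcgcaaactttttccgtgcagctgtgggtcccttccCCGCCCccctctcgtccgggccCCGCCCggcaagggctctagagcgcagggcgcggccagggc
The Col3a1 window held the letters of a TATA box 117 bases before the start and no other motif, whereas the Col5a3 window held 1 CCAAT box 122 bases before the start and 2 GC boxes, the nearer 41 bases before it. Of all 32851 windows, 12.4% held a TATA box, 33.8% a CCAAT box and 32.7% a GC box, and of the 38 windows of members 5, 13 and 22 did. A match is a description of letters and does not show that a factor binds there. Windows were matched to members by gene symbol, so a window may belong to another start than that of the counted gene.

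The basement membrane genes Col4a1 and Col4a2, whose chains assemble into the type IV collagen found in nearly all basement membranes, rose together. Col4a1 was at 255, 254 and 283 CPM in WT1, WT2 and WT3 and at 349, 338 and 356 CPM in KO1, KO2 and KO3, a 1.32-fold rise with no overlap (log2 fold change 0.40 ± 0.08, adjusted p = 1.36e-05). Col4a2 was at 159, 176 and 213 CPM in the WT libraries and at 247, 241 and 257 CPM in the KO libraries, a 1.36-fold rise with no overlap (log2 fold change 0.44 ± 0.10, adjusted p = 3.51e-05). Both passed in each of the 6 fits that left 1 library out. The genes lie head to head on chromosome 8 (GRCm39: Col4a1 from 11248423 to 11362826, minus strand, and Col4a2 from 11362805 to 11499287, plus strand), so that their annotated starts overlap by 22 bases. This stretch, shared by the annotated 5′ ends of both genes, is given on the plus strand at chr8:11312805-11312826 of GRCm38.p6.
Col4a1 and Col4a2 start overlap: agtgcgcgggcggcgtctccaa
This stretch is in lower case throughout, and its letters include a GC box (gggcgg). Reads from these bases could be of either gene where strand was not used in counting, but they make up 22 bases of exonic lengths of 7464 and 6619 bases.

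Col4a5, which pairs with other type IV chains in kidney, lung and smooth muscle basement membranes, was at 82.45, 82.7 and 91.8 CPM in WT and at 75.0, 70.6 and 73.1 CPM in KO libraries. The KO libraries lay below the WT libraries (log2 fold change -0.23 ± 0.10, adjusted p = 0.0472). It did not pass without KO1, KO2, KO3 or WT3 (adjusted p = 0.186, 0.247, 0.202 and 0.249), nor with limma voom (0.0632). Col4a6, which starts 1.31 kb from Col4a5 on the X chromosome in the opposite orientation, was at 8.23 to 11.75 CPM in WT and 9.63 to 11.05 CPM in KO libraries, with overlap (log2 fold change 0.04, adjusted p = 0.912). Col4a3 and Col4a4, a head-to-head pair with starts 71 bases apart, had at most 18 counts in any library and did not pass.

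No beaded filament gene passed the edgeR test with all libraries. Col6a1 was at 771, 795 and 883 CPM in the WT libraries and at 791, 765 and 824 CPM in the KO libraries (log2 fold change -0.04, adjusted p = 0.721). Col6a2 was at 525, 574 and 593 CPM in the WT libraries and at 530.3, 547 and 530.5 CPM in the KO libraries (log2 fold change -0.07, adjusted p = 0.583). The genotypes overlapped for both chains of type VI collagen. Col6a3, the largest type VI chain, was at 654 CPM in WT1 but at 870.1 and 878 CPM in WT2 and WT3, against 675.5 to 710.3 CPM in KO libraries. With all libraries it did not pass (log2 fold change -0.21, adjusted p = 0.0698), and without WT1 it did (log2 fold change -0.33, adjusted p = 5.05e-14), as did Col6a2 (log2 fold change -0.12, adjusted p = 0.0178). Col6a3 also passed in the older edgeR quasi-likelihood fit with all libraries (adjusted p = 0.0182). Col28a1 was at 0.642 to 1.56 CPM with overlap (log2 fold change 0.65, adjusted p = 0.402). Col6a4, Col6a5 and Col6a6, which lie in a row on chromosome 9, had at most 3 counts in any WT library. In KO libraries Col6a4 had 7, 5 and 5 counts (adjusted p = 0.259, and 0.0447 with limma voom), Col6a5 had 6, 2 and 3 counts (adjusted p = 0.516) and Col6a6 had 1, 2 and 3 counts (adjusted p = 0.309).

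Among the FACIT genes, Col12a1, whose long chain binds to the surface of type I fibrils in dense connective tissue, was at 1544, 2123 and 2195 CPM in WT1, WT2 and WT3 and at 1873, 1810 and 1864 CPM in KO1, KO2 and KO3. The WT libraries lay on both sides of the KO libraries (log2 fold change -0.08, adjusted p = 0.621). Without WT1, Col12a1 was lower in KO (log2 fold change -0.22, adjusted p = 2.01e-09), so that 9 members rather than 5 were lower in that fit, in which the lower calls over all genes also went from 964 to 1599. Col16a1 was at 188, 179.5 and 213 CPM in WT and at 206, 210.2 and 214 CPM in KO libraries, with overlap (log2 fold change 0.12, adjusted p = 0.406). Col14a1 had 1.88, 3.92 and 3.92 CPM in the WT libraries and 5.43, 4.75 and 4.25 CPM in the KO libraries, a separation that did not pass the test (log2 fold change 0.54, adjusted p = 0.135). The other 6 FACIT members had at most 10 counts in any library.

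Both short chain genes with at least 1 CPM were lower in KO. They encode the chains of type VIII collagen, a net-forming collagen of the cornea's Descemet membrane and of vessel walls. Col8a1 was at 273, 268 and 267 CPM in the WT libraries and at 226, 226 and 218 CPM in the KO libraries, with a spread of a few CPM within each genotype (log2 fold change -0.27 ± 0.08, adjusted p = 0.00305). Col8a2 was at 4.39, 6.77 and 6.33 CPM in the WT libraries and at 3.16, 3.85 and 3.37 CPM in the KO libraries, also without overlap (log2 fold change -0.78 ± 0.21, adjusted p = 0.00580). Col8a1 did not pass without KO1 or KO3 (adjusted p = 0.0600 and 0.0695), and Col8a2 did not without KO1 or WT3 (0.144 and 0.0831). The 250 bases upstream of Col8a1 (chr16:57754738-57754987, minus strand, GRCm38.p6) are printed as the most abundant member of this class that fell, with motif letters in capitals as before.
Col8a1: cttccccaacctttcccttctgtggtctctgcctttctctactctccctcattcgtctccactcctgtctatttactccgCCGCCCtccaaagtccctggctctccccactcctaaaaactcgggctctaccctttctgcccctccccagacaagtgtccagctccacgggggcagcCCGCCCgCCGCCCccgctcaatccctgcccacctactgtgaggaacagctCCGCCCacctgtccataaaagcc
It held 4 GC boxes, the nearest 23 bases before the start, and no match to the other motifs. Col10a1, the third short chain gene and the collagen of hypertrophic cartilage, had 4 to 8 counts in WT and 14 to 25 counts in KO libraries and did not pass (log2 fold change 1.52, adjusted p = 0.0687). Its annotated span lies within that of Nt5dc1 on the opposite strand, and whether their exons overlap was not examined.

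Col18a1, a multiplexin of basement membrane zones whose end piece is endostatin, was at 32.9, 38.85 and 46.3 CPM in the WT libraries and at 49.99, 48.1 and 53.6 CPM in the KO libraries. It was 1.27-fold higher in KO (log2 fold change 0.35 ± 0.12, adjusted p = 0.0116), with no overlap, and did not pass without KO1, KO2 or KO3 (adjusted p = 0.210, 0.0518 and 0.139). Its annotated span overlaps Slc19a1 on the other strand, a folate carrier gene at 52.7 CPM over all libraries with a log2 fold change of -0.20 (adjusted p = 0.143), and whether their exons overlap was not examined. The other multiplexin, Col15a1, was at 0.392, 1.64 and 1.29 CPM in WT and at 1.04, 0.661 and 1.25 CPM in KO libraries, with overlap (adjusted p = 0.804).

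Col25a1 was the single collagen DEG. It encodes a transmembrane collagen known from motor neurons and developing muscle, whose shed part was first found in amyloid plaques. It was a gene of low level here, at 2.51, 3.85 and 2.52 CPM in WT1, WT2 and WT3 and at 1.18, 1.26 and 0.812 CPM in KO1, KO2 and KO3. All KO values lay below all WT values, and KO MEFs had 0.375 times the WT level (log2 fold change -1.41 ± 0.32, adjusted p = 0.000795). It was lower by the DEG rule in each fit that left 1 library out, with log2 fold changes from -1.54 to -1.19, but not when tested against a 2-fold change in place of 0 (adjusted p = 1.00). Its upstream window (chr3:130180595-130180844, plus strand, GRCm38.p6) is printed because no other member passed the DEG rule. Whether this window lies at the annotated start of the counted gene was not examined.
Col25a1: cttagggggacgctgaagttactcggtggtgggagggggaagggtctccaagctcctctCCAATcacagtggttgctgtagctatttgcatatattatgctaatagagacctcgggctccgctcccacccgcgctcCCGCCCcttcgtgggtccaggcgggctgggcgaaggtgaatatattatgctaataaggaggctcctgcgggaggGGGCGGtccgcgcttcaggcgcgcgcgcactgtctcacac
It held 1 CCAAT box 191 bases before the start and 2 GC boxes, the nearer 40 bases before it. Of the other transmembrane members, Col17a1, a hemidesmosome collagen of epithelia, had 4, 8 and 11 counts in the WT libraries and 4, 22 and 14 counts in the KO libraries, with overlap (log2 fold change 0.55, adjusted p = 0.652). Col23a1 had at most 7 counts in any library and did not pass.

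Col7a1, which forms the anchoring fibrils between epidermal basement membrane and dermis, was at 75.6, 79.55 and 89.0 CPM in WT and at 100.1, 99.2 and 105.9 CPM in KO libraries. The KO libraries lay above the WT libraries (log2 fold change 0.32 ± 0.10, adjusted p = 0.00354), and the gene did not pass without KO1 or KO3 (adjusted p = 0.0845 and 0.0577). Col26a1 had 2 counts in WT3 and 0 in the other libraries. In all, 16 members tested had a mean below 1 CPM and at most 26 counts in any library, and none of them passed in the edgeR test, Col10a1 having the lowest adjusted p (2 had an unadjusted p below 0.05, DESeq2 called 0 and limma voom 1).

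Chains that join in 1 molecule were compared as ratios of FPKM within each library, which no scaling between libraries can change and for which no test was run. The ratio of Col1a1 to Col1a2 was 2.87, 2.995 and 3.01 in the WT libraries and 3.60, 3.64 and 3.76 in the KO libraries, so that it was 1.24-fold higher in KO with no overlap. The ratio of Col5a1 to Col5a2 was 0.588, 0.688 and 0.679 in the WT libraries and 0.862, 0.856 and 0.899 in the KO libraries, 1.34-fold higher with no overlap. By contrast, the ratio of Col4a1 to Col4a2 was 1.18 to 1.42 in WT and 1.23 to 1.25 in KO libraries, and the ratio of Col6a1 to Col6a2 was 2.63 to 2.83 in WT and 2.655 to 2.95 in KO libraries, both with overlap. Col6a1 to Col6a3 also overlapped, at 2.50 to 3.22 in WT and 3.09 to 3.17 in KO libraries. A further 4 ratios were chosen after the values had been seen. Of these, Col5a3 to Col5a2 was at 0.0375 to 0.0468 in WT and 0.0970 to 0.102 in KO libraries (2.29-fold), and Col3a1 to Col5a2 at 0.562 to 0.573 in WT and 0.8615 to 0.882 in KO libraries (1.54-fold). Col4a1 to Col4a5 was at 2.76 to 2.78 in WT and 4.19 to 4.38 in KO libraries (1.55-fold), and Col3a1 to Col1a1 overlapped.

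**Figure D3:**
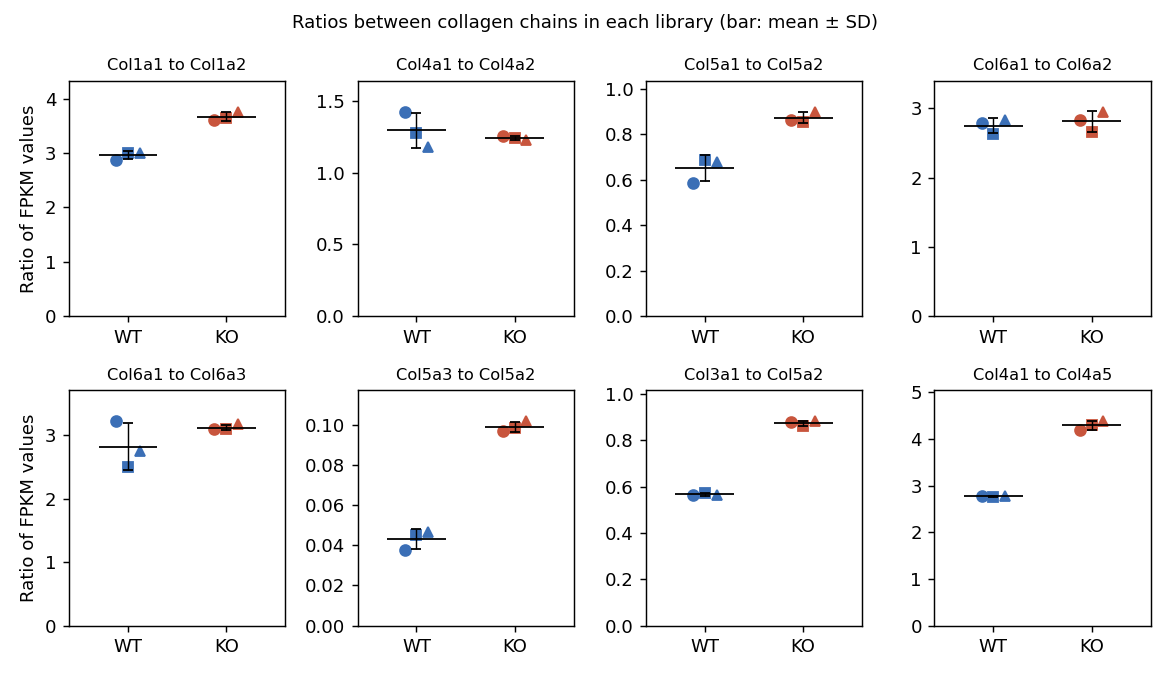
Ratio of FPKM values of pairs of collagen chains in each library (y axis, starting at 0), with WT libraries in blue and KO libraries in red, the mean as a horizontal line and the SD over 3 libraries as a bar. The ratios of Col1a1 to Col1a2, of Col5a1, Col5a3 and Col3a1 to Col5a2, and of Col4a1 to Col4a5 are higher in all KO than in all WT libraries, while the ratios within types IV (Col4a1 to Col4a2) and VI overlap; those of Col5a3, Col3a1 and Col4a5 were chosen after the values were seen.

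Collagen chains are hydroxylated and folded in the endoplasmic reticulum, trimmed of their propeptides outside the cell, crosslinked by lysyl oxidases, bound by small proteoglycans and cell receptors, and degraded by proteases. Of 83 genes on 7 lists for these steps and for regulators of collagen transcription, 80 were tested, of which 7 were higher and 4 lower by the DEG rule, and 15 were higher and 13 lower at an adjusted p below 0.05 alone. The background for these counts is the same as for the collagen genes, 1.73% and 0.662% by the DEG rule and 4.60% and 3.58% by adjusted p. At 1 CPM or more there were 69 pathway genes, of which 13 were higher and 13 lower by adjusted p, against 8.38% and 6.98% of all genes at this level.

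Chain modification and folding had the fewest calls, near the 4.60% higher and 3.58% lower of all genes tested. The lists were not compared by a test. Of its 23 genes, 1 was higher, 1 was lower and 21 did not pass, with a summed level of 4720 to 4971 CPM in WT and 4834 to 4904 CPM in KO libraries. P4ha3, a subunit of prolyl 4-hydroxylase, was at 41.7, 45.6 and 49.4 CPM in the WT libraries and at 30.5, 27.5 and 27.0 CPM in the KO libraries (log2 fold change -0.69, adjusted p = 2.75e-07). The gene that was higher was Creb3l1 (log2 fold change 0.41), a membrane-bound factor that acts on type I collagen genes.

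Propeptide removal had 4 of 8 genes higher and 1 lower. Adamts14, a protease that trims the amino end of fibrillar procollagens, was at 9.09, 8.55 and 9.61 CPM in the WT libraries and at 19.8, 22.4 and 23.9 CPM in the KO libraries, more than 2-fold higher with no overlap (log2 fold change 1.27, adjusted p = 7.89e-11). Adamts2, a protease with the same task, was at 16.8 to 20.6 CPM in WT and 30.35 to 35.8 CPM in KO libraries (log2 fold change 0.82, adjusted p = 6.01e-08). Of the 6 crosslinking genes 1 was higher and 2 were lower, with Loxl3 at 279 to 300.1 CPM in WT and 191 to 200 CPM in KO libraries (log2 fold change -0.56, adjusted p = 1.06e-08).

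Of the 11 collagen-binding proteoglycan genes tested, 0 were higher in the edgeR test (1 at an unadjusted p below 0.05, 0 with DESeq2 or limma voom) and 3 were lower. Aspn, which encodes asporin, a small leucine-rich protein that binds type I collagen, was at 196, 175 and 162 CPM in WT1, WT2 and WT3 and at 57.4, 51.6 and 51.8 CPM in KO1, KO2 and KO3. This was the lowest adjusted p among the pathway genes (log2 fold change -1.72, adjusted p = 2.79e-21). Bgn (biglycan), the most abundant gene of this list, was at 1668 to 1833 CPM in WT and 1222 to 1251 CPM in KO libraries (log2 fold change -0.51, adjusted p = 2.21e-09).

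Among 9 receptor and uptake genes tested, 3 were higher and 2 lower. Itga11, the α subunit of the α11β1 integrin through which fibroblasts grip fibrillar collagen, was at 56.2, 73.1 and 74.9 CPM in the WT libraries and at 33.0, 27.65 and 28.35 CPM in the KO libraries (log2 fold change -1.20, adjusted p = 4.25e-13). Of the 8 proteases, 1 was higher and 2 were lower by adjusted p. Ctsk (cathepsin K), a protease that cuts triple-helical collagen, was at 77.0, 70.85 and 73.6 CPM in WT and at 35.3, 35.3 and 35.1 CPM in KO libraries (log2 fold change -1.07, adjusted p = 1.05e-13). Fap, a cell-surface protease of activated fibroblasts, was at 6.01 to 10.05 CPM in WT and 1.87 to 3.55 CPM in KO libraries (log2 fold change -1.65, adjusted p = 9.94e-08).

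The regulators held 5 higher and 2 lower of 15 genes, and 4 of the 5 passed the DEG rule. Sox9, which drives cartilage collagen genes, was at 9.56, 8.20 and 9.98 CPM in the WT libraries and at 24.45, 24.4 and 23.0 CPM in the KO libraries (log2 fold change 1.37, adjusted p = 3.30e-12). Sox5, its partner in cartilage, was at 0.428 to 0.627 CPM in WT and 3.25 to 5.77 CPM in KO libraries (log2 fold change 3.17, adjusted p = 8.60e-10). Scx (scleraxis), a tendon factor that acts on type I collagen genes, was at 8.77 to 12.02 CPM in WT and 20.7 to 22.0 CPM in KO libraries (log2 fold change 1.07, adjusted p = 9.41e-09). Egr1, an early response factor, was at 64.9 to 72.3 CPM in WT and 131 to 150 CPM in KO libraries (log2 fold change 1.04, adjusted p = 1.68e-14). Ccn2, a matrix protein induced by TGF-β, was at 203 to 218 CPM in WT and 121 to 135 CPM in KO libraries (log2 fold change -0.72, adjusted p = 6.24e-11). Adamts2, Creb3l1, Bgn and Ccn2 were picked out after their values had been seen.

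**Figure D4:**
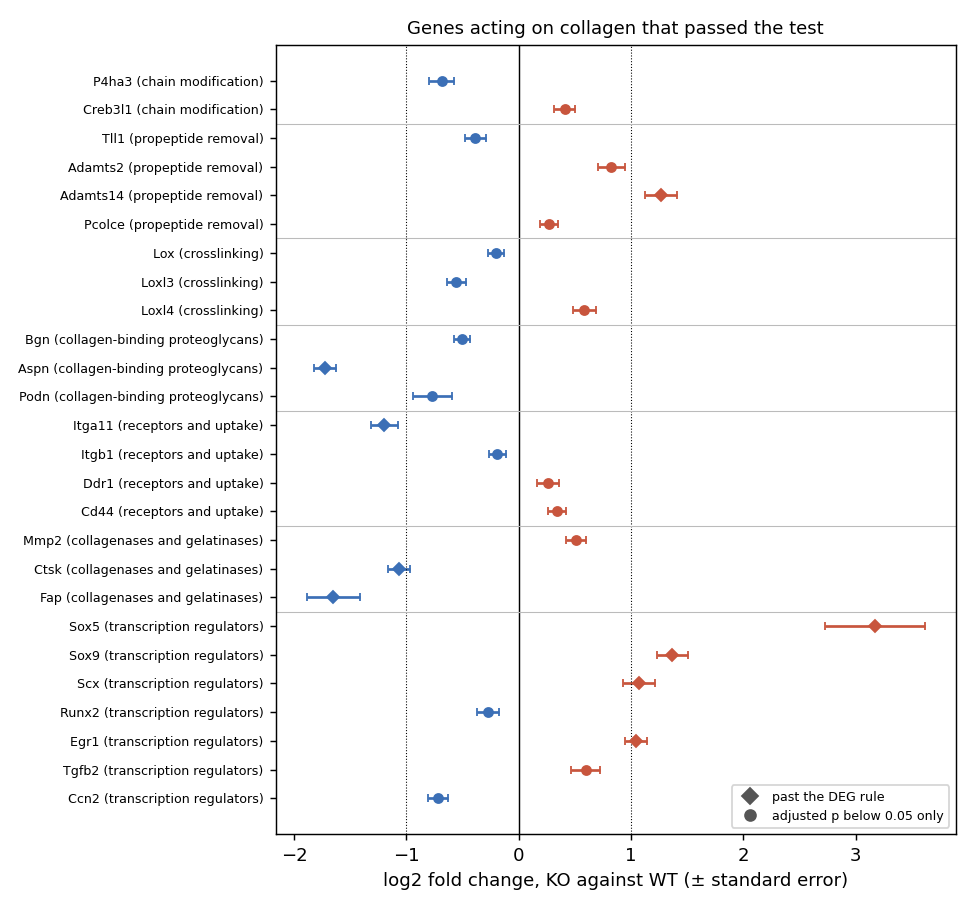
log2 fold change, KO against WT, with its approximate standard error (x axis) for the 26 genes of the 7 collagen pathway lists that had a mean of at least 1 CPM and an adjusted p below 0.05, grouped by list, with genes higher in KO in red and genes lower in KO in blue. Diamonds mark DEGs and circles genes past the adjusted p alone; 13 are higher and 13 lower, with Sox5 at 3.17 and Aspn at -1.72 at the ends.

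Markers of other cell types that a trunk culture could hold moved with genotype in some lists. For the counts that follow, all by adjusted p, 4.60% of all genes tested were higher and 3.58% lower, and 8.38% and 6.98% of those at 1 CPM or more. The mesothelial list had 2 of 7 genes higher (Msln and Krt19) and a summed level of 6.42 to 7.37 CPM in WT and 49.3 to 56.0 CPM in KO libraries, with 4 of the 7 genes at 3 counts or fewer in every library. Msln, which encodes mesothelin and held most of the KO sum, was at 2.74, 3.065 and 2.845 CPM in WT and at 43.05, 48.3 and 43.2 CPM in KO libraries (log2 fold change 3.95, adjusted p = 1.12e-25). The epithelial list had 3 of 9 higher (Krt8, Krt18 and again Krt19, which is on both lists) and summed to 3.56 to 5.17 CPM in WT and 12.3 to 13.3 CPM in KO libraries, with 4 of the 9 at 3 counts or fewer. Krt18, a keratin of simple epithelia, was at 0.285 to 0.805 CPM in WT and 3.85 to 5.145 CPM in KO libraries (log2 fold change 2.94, adjusted p = 1.28e-09). The chondrocyte list had 2 of 10 higher (Sox9 and Acan) and summed to 16.3 to 20.3 CPM in WT and 38.1 to 38.8 CPM in KO libraries, with 5 of the 10 at 3 counts or fewer. Acan, the large proteoglycan of cartilage, which with Sox9 held most of the KO sum, was at 4.705 to 5.47 CPM in WT and 10.7 to 12.4 CPM in KO libraries (log2 fold change 1.11, adjusted p = 4.13e-07). Of the tendon list 1 of 5 genes was higher (Scx). The median log2 fold change of this list was -0.389 over the 5 genes and 0.661 over the 3 at 1 CPM or more. Of the osteoblast, smooth muscle and Schwann lists, 1 of 9 (Runx2), 1 of 6 (Acta2) and 1 of 6 genes (Mbp) were lower. The osteoblast sum was 66.4 to 74.1 CPM in WT and 56.3 to 62.1 CPM in KO libraries. The smooth muscle sum was 1627 to 1804 CPM in WT and 1247 to 1306 CPM in KO libraries. The Schwann sum was 23.9 to 27.2 CPM in WT and 18.9 to 21.7 CPM in KO libraries. Skeletal muscle, endothelial and immune lists had 0 calls in the edgeR test (1 gene each at an unadjusted p below 0.05, 0 with DESeq2, and 1 endothelial gene with limma voom). Skeletal muscle markers summed to at most 0.236 CPM in any library. The part of these cells in the rise of Col4a1, Col4a2, Col18a1 and Col7a1, or in any other collagen change, was not tested, and in bulk RNA fewer cells of a type and less RNA per cell cannot be told apart.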

How the data were processed

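RNA of WT and KO MEFs (3 libraries each) was made into NEBNext Ultra libraries and sequenced as read pairs. Per the labels and methods, the authors used fastp, HISAT2 2.0.5 and featureCounts 1.5.0-p3, and deposited raw counts and FPKM values per gene. The strand setting was not given in the sources used here. The notes name GRCm38 and the methods Ensembl 106; the coordinates in the deposited tables are GRCm39.

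Counts were tested for all 26898 genes above 0 FPKM in at least 1 library with edgeR 4.0.16 (quasi-likelihood fit, TMM, no covariates, Benjamini-Hochberg adjustment; R 4.3.3); the TMM factors were 0.980 to 1.01. Values after ± on log2 fold changes are approximate standard errors, calculated apart from the test from fitted means, dispersions and gene variances. The p-values do not follow from them. Alternatives used limma 3.58.1, DESeq2 1.42.0, other filters and scalings, and single libraries left out. The fit was tested on simulated data. Of the rows, 151 had no Ensembl gene.

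Full values were given for members past either threshold and for the 2 of each type with the highest FPKM. On the pathway lists values were given for DEGs of at least 1 CPM, or otherwise for the lowest adjusted p. On the marker lists they were given for DEGs of at least 1 CPM. Members, lists and named genes were chosen with earlier results of these data known.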

Additional observations from a re-analysis of the deposited data

How the results depend on the processing

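Over 15 alternatives for each of the 26 collagen genes with at least 1 CPM, 344 of 390 values kept direction and side of the threshold, 32 no longer passed, 9 newly passed and 5 changed sign. The 390 values include those of members that did not pass, and 1 alternative was a test against a 2-fold change. Members that passed kept their call in 8 (Col4a5) to 14 of the 15 alternatives. The count of collagen DEGs higher in KO was 1 with limma voom (Col6a4). Tested against a 2-fold change in place of 0, the counts were 0 lower by the DEG rule, and 0 higher and 0 lower by adjusted p alone. For members that changed by less than 2-fold this outcome was fixed in advance, so among those that passed it bears on Col25a1 alone. With each library left out in turn, 4 to 7 members were higher and 2 to 9 lower by adjusted p; the 9 came without WT1 and the 2 without KO1. Over all genes, 1238 were higher and 964 lower with all libraries, 1585 and 1599 without WT1, and 607 and 385 without KO1. Sign changes came with libraries left out, in genes that did not pass with all 6: log2 fold changes ran from -0.0728 to 0.205 for Col4a6 (below 0 without WT1 or KO3), -0.0821 to 0.0186 for Col6a1 and -0.223 to 0.0125 for Col12a1 (above 0 without WT3), and -0.545 to 0.0951 for Col15a1 (above 0 without WT2). The log2 change of the Col4a1 to Col4a2 ratio ran from -0.12 to 0.016 and that of Col6a1 to Col6a2 from -0.0031 to 0.073 with libraries left out. RLE scaling moved the median of all genes by -0.00069. Collagen counts as a share of the library differed by 0.114 percentage points (KO minus WT), and by 0.0319 (without WT1) to 0.194 (without WT3) with libraries left out.

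Replicate numbers showed no evident pairing of the libraries: same-numbered WT and KO libraries correlated at -0.0167, -0.0102 and 0.05 in their deviations from the group means. Other WT and KO pairs correlated at -0.0384 to 0.038. With 3 libraries a group this cannot exclude a shared litter or batch, which the labels do not give. With the replicate number as a block, 7 collagen genes were higher and 4 lower by adjusted p (Col4a5 at 0.112), 0 and 1 by the DEG rule, with 871 higher and 617 lower over all genes by adjusted p.

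Genes with few counts limit this comparison: the 16 tested members below 1 CPM had at most 26 counts in a library, which limits what can be detected in them.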
